A study of Lolium perenne with 10 samples.

Results

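The comparison described here sets the perennial ryegrass libraries titled heat, whose treatment field reads cold, against the untreated controls. It uses 4 of the 10 libraries of the series, 2 on each side, chosen by their sample titles. The group is called title-heat, and because its labels contradict each other no temperature is assigned to it. By its titles it would have been held at 42 °C and by its treatment field at 4 °C, for 12 h from an age of 14 days per the design text. Both groups were wild type (genotype WT) leaf tissue of Lolium perenne, a temperate forage species also sown as lawn. Seedlings were raised at a day temperature of 22 °C and a night temperature of 18 °C under a photoperiod of 16 h. Each library pooled 30 seedlings, so a value is an average over plants. A protocol text written for Arabidopsis stands in the same labels and gives 12 h for heat but 6 h for cold, and adds 5 days of recovery after stress, so the duration is uncertain if the group was the cold one. Whether these leaves were taken straight after treatment or after recovery is therefore not settled by the labels. The age of the control seedlings is not given in the sources used here, so an age difference and the treatment cannot be told apart. The other 6 libraries are 2 each of drought, submergence and the group with the reverse labels (title-cold). They enter the fit for its estimate of spread, and also the choice of clusters tested and the scaling.

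Plants respond to high temperature largely through heat shock transcription factors, which switch on chaperones such as heat shock proteins that keep other proteins folded. Low temperature acts mainly through CBF transcription factors, which switch on dehydrin and other protective genes, and temperate grasses also build up fructan in the cold. Both stresses lower the level of many transcripts for photosynthesis and growth. The title of the series names LpHSFC1b, a heat shock factor of class C. The deposited table lists assembled sequence clusters by identifiers that match none of the 56406 genes of the Kyuss_2.0 reference table (0 matches), so that factor, heat shock genes, cold response genes and leaf markers were not analysed here, and neither label could be checked against such genes. No sequence of these clusters is shown. The extraction protocol in the labels names bermudagrass, as does the name of the deposited table, so whether these counts belong to another species or experiment is a doubt that bears on every value and was not tested. Results are given for groups of clusters defined by their size of change, their read number and their behaviour in the other treatments, and 4 clusters are named.

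Total counts were 10847727 and 11265620 in control and 11425066 and 11008169 in title-heat, and all 10 libraries lay between 10847727 and 12605087. Clusters with at least 10 counts numbered 18079 and 18773 in control and 17742 and 18198 in title-heat, so these ranges overlapped. The leaf thus carried reads from a similar number of clusters in both groups. Submergence libraries stood apart from the rest with 25967 and 26054 such clusters. A fit without them gave 5653 calls where the full fit gave 5681.

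Title-heat leaves differed from control leaves in 5681 of 27571 clusters tested, which is 20.6% (edgeR's quasi-likelihood test, Benjamini-Hochberg adjusted p below 0.05). Of these, 3383 clusters (12.3% of those tested) were higher and 2298 (8.33%) were lower in title-heat. Only 23724 of the tested clusters had any read in the 4 compared libraries. The rest were tested through their counts in the other treatments and none was called, which lowers every share of all tested clusters. A fit to the 4 libraries alone tested 19134 clusters and called 6894. Among all 27571 clusters, 28.8% had both title-heat libraries above both controls and 27.7% had both below. Every one of the 5681 called clusters had groups that did not overlap, which with 2 libraries a side is a weak requirement. The share of calls that were higher was 59.5%, and this excess depended on scaling, with 49% under upper-quartile factors and 48.3% under total counts. Those scalings moved the log2 change of a cluster by a median of −0.146 and −0.159. Calls fell to 3594 or 3561 without control replicate 1 or 2, and to 3294 or 3235 without title-heat replicate 1 or 2. An exact permutation test of a single value cannot go below p = 0.333 with 2 libraries against 2, so values of whole libraries are given without a test.

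**Figure D1:**
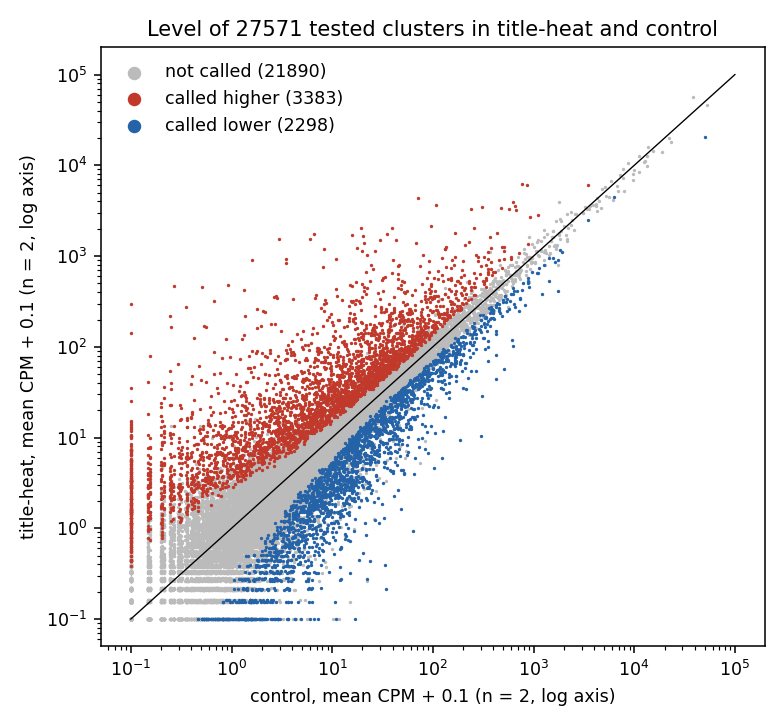
Mean level of each of the 27571 tested clusters in control (x axis) and title-heat (y axis), in CPM (counts scaled to library depth) plus 0.1 on log axes, with n = 2 libraries each. Red points are the 3383 clusters called higher, blue points the 2298 called lower, grey points are not called, and the line marks equal levels; red points reach farther from the line than blue ones.

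Among called clusters the rises were larger than the falls. The median log2 change was 1.86 among the higher clusters, with quartiles at 1.095 and 3.056, and −1.66 among the lower, with quartiles at −1.01 and −2.50. Clusters with 0 counts in one group enter these values at a bound, computed against 3 counts per library, which corresponds to 0.314 CPM in control and 0.345 CPM in title-heat. CPM is the count scaled to library depth and TMM factor, and since cluster lengths are not given it compares the same cluster between libraries and not one cluster's RNA with another's. In all, 2661 clusters (9.65% of those tested) rose and 1733 (6.29%) fell at least 2-fold. At least 4-fold changes were found in 1567 rising (5.68%) and 887 falling clusters (3.22%), and at least 16-fold changes in 460 (1.67%) and 134 (0.486%). Among called clusters with reads in both groups, the medians were 1.82 and −1.65 with TMM factors and 1.95 and −1.51 under total counts, so this order did not turn with scaling. The clusters that rose at least 16-fold were nearly silent in control, with a median of 0.331 CPM there against 15.7 CPM in title-heat. As a set they took 0.151% and 0.168% of the counts in the control libraries and 5.88% and 5.71% in the title-heat libraries, and 111 of them reached 100 CPM in title-heat while 1 did so in control. Their median was 3.80 CPM under drought, 1.21 CPM under submergence and 0.658 CPM in title-cold. Those that fell at least 16-fold went from a median of 5.57 CPM to one of 0.121 CPM, and took 0.159% and 0.165% of the control counts. Both sets were cut by their ratio to control. Their low levels on one side, and their distance from the other treatments, thus follow in part from the choice.

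Clusters with 0 counts in one group were ranked at their bound and the others at their fitted change, so a cluster at 0 may have changed more than the pair given next. The riser ranked first had 3 and 0 counts in control and 4593 and 3555 in title-heat, a 2996-fold rise whose 95% interval from counting error ran from 1025 to 14530 (adjusted p = 1.39e-06, edgeR). Under drought it had 21 and 25 counts, and no library of submergence or title-cold had more than 6. The faller ranked first had 358 and 297 counts in control and 1 in each title-heat library, a 296.9-fold fall with an interval from 81.9 to 2457 (adjusted p = 1.83e-05, edgeR). It was read in all other treatments, with 43 and 48 counts under drought, 482 and 259 under submergence and 276 and 305 in title-cold.

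Few clusters were read in 1 group of the comparison and not in the other. In 144 clusters both control libraries had 0 counts and both title-heat libraries had at least 10, and 77 showed the reverse. The first set ran from 1.15 to 298 CPM in title-heat with a median of 3.16 CPM, and held 0.0849% and 0.0813% of the counts there. Of its 140 tested members, 125 were called, beside 20.6% of all tested clusters. The members were picked by their counts in the same libraries, so these calls are nearly given by the choice. In 13 of the 144, all 6 libraries of the other treatments also had 0 counts, while 40 had at least 10 counts in both drought libraries, 25 in both submergence libraries and 10 in both title-cold libraries. Of all 46394 clusters, 18638 and 18802 reached 10 counts in the single drought libraries. Those numbers were 25967 and 26054 in the submergence libraries and 20513 and 21403 in the title-cold libraries. Among the 77, none (0) was without reads in all other treatments. A count of 0 allows up to 3 counts in that library. Between single libraries, 70 to 249 clusters had 0 counts in one replicate and at least 10 in its partner of the same group, against 341 to 513 between a control and a title-heat library.

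A large part of the leaf's reads moved between clusters. The 3383 higher clusters took 7.79% and 8.21% of the counts in control and 27.0% and 26.4% in title-heat. The 2298 lower clusters took 16.4% and 15.8% in control and 6.65% and 6.97% in title-heat. Both sets were chosen by this comparison, so the direction of these shares is given by the choice and the size is a description. The shift of the higher set was 18.7 percentage points. That of the lower set was −9.29 points, and clusters that were not called gave up the rest, from 75.8 ± 0.18% to 66.4 ± 0.19% (SD, n = 2). The rise was spread over many clusters, the 10 with the largest gains making up 15% of it and the 100 largest 49.3%. Of the loss, 38.7% lay in the 10 clusters with the largest losses and 62.1% in 100. One cluster, c164041.graph_c6, accounted for −2.71 points of it, and its call is lost when either of 2 libraries is left out, as given with its values. Without it the 10 largest losses made up 14.4% and the 100 largest 46.7%, about as spread as the rise.

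**Figure D2:**
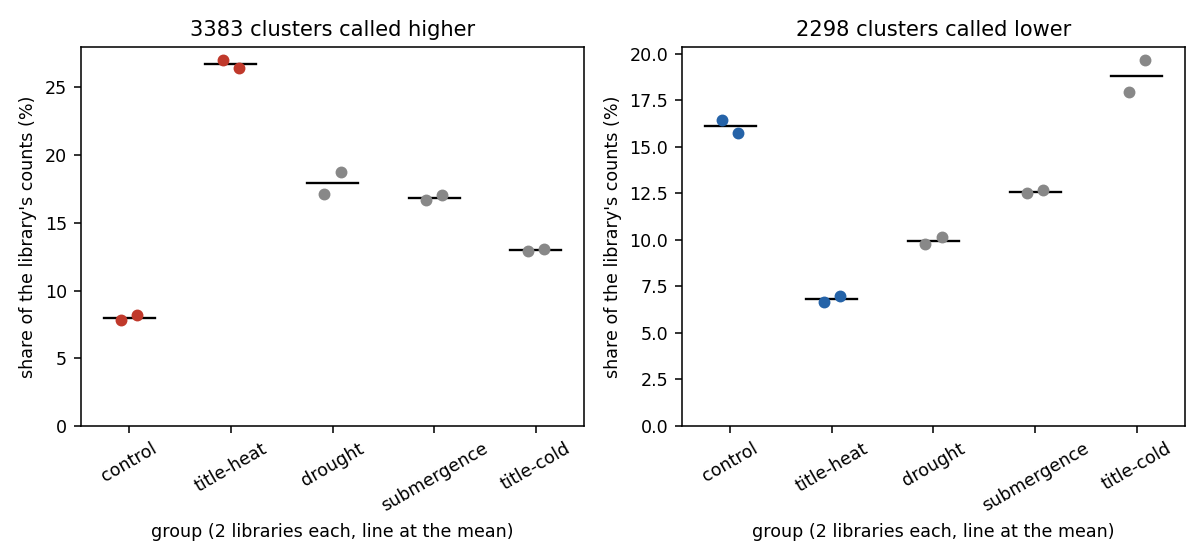
Share of each library's counts (y axis, %) held by the 3383 clusters called higher (left) and the 2298 called lower (right) in title-heat against control, for the 2 libraries of each group with a line at the mean. The higher set holds 26.4% to 27.0% in title-heat and 7.79% to 8.21% in control, and the lower set holds 6.65% to 6.97% in title-heat and 15.8% to 16.4% in control. Its level in title-cold includes 8.04% and 9.56% from 1 cluster, without which the set holds 9.93% and 10.1% there and 11.4% and 12.2% in control.

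The same clusters had levels in the other treatments that lay at different distances from title-heat. The higher clusters held 17.2% and 18.7% of the counts under drought, 16.7% and 17.0% under submergence and 12.9% and 13.1% in title-cold. Their median level was 6.79 CPM in control, 25.5 CPM in title-heat, 18.8 CPM under drought, 11.3 CPM under submergence and 7.84 CPM in title-cold. For the lower clusters the medians were 13.9 CPM in control, 3.82 CPM in title-heat, 8.25 CPM under drought, 8.41 CPM under submergence and 13.04 CPM in title-cold. In title-cold the lower clusters held 18.0% and 19.7% of the counts, of which the single cluster c164041.graph_c6 held 8.04% and 9.56%. Without it the other 2297 held 9.93% and 10.1% in title-cold, 11.4% and 12.2% in control and 5.27% and 5.16% in title-heat. Being low or high in these controls helped to select the clusters, so a level set beside control in another treatment is not independent of that choice.

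Each difference from another treatment was also tested directly. Title-heat differed from drought in 6107 clusters (22.2%), from title-cold in 10307 (37.4%) and from submergence in 14983 (54.3%) by edgeR. Of the 3383 clusters higher than control, 1311 (38.8%) were also higher than under drought and 449 (13.3%) were lower than there, where 10.9% and 11.3% of all tested clusters were. The higher clusters exceeded title-cold in 2546 cases (75.3%, against 19.6% of all) and submergence in 2121 (62.7%, against 20.9%). Of the 2298 clusters below control, 848 (36.9%) were also below drought, 1476 (64.2%, against 17.8% of all) below title-cold and 1185 (51.6%, against 33.5%) below submergence. These tests share the title-heat libraries with the comparison that chose the clusters, which raises such counts. Scaling factors were 0.753 to 0.800 in title-heat, 0.853 to 0.874 under drought and 1.24 to 1.40 in submergence and title-cold, so the direct comparisons with the last pair rest more on scaling.

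A set of 855 clusters (3.1% of those tested) was higher in title-heat than in every other group, each of the 4 differences passing the edgeR test, and 498 (1.81%) were lower than in every other group. They make up 25.3% of the clusters above control and 21.7% of those below. The 855 had a median of 69.6 CPM in title-heat, against 11.3 CPM in control, 16.0 CPM under drought, 9.33 CPM under submergence and 8.02 CPM in title-cold. In 653 of them the title-heat mean was at least 2-fold above the highest other group mean. They held 15.3% and 15.4% of the counts in title-heat and 3.28% and 3.37% in control. For the 498 the median was 2.45 CPM in title-heat and 10.4 to 13.8 CPM in the other groups, and 388 were at least 2-fold below the lowest of these. The larger the change from control, the more of the higher clusters belonged to this set: 14% of those changed under 2-fold, 20% of those changed 2- to 4-fold, 29.2% at 4- to 16-fold and 46.1% at 16-fold or more. All 4 tests share the title-heat libraries, and the change from control is 1 of them. High title-heat values thus raise both measures, so this order follows in part from the choice and is a description. Under total counts the sets held 603 and 829 clusters, so the excess of the higher set reversed there. Without title-heat replicate 1 or 2 they held 563 or 505 and 288 or 225.

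The share of clusters called was highest at 100 to 1000 CPM. Clusters were classed by their mean CPM over the 6 libraries outside the comparison, so that the ranking uses none of the compared values. Under 1 CPM 7.93% of 6004 clusters were called, at 1 to 10 CPM 16.4% of 11888, at 10 to 100 CPM 32.5% of 8432 and at 100 to 1000 CPM 43.4% of 1165, beside 20.6% of all. The first value is unstable, at 14.9% with no filter, 14.1% without submergence libraries and 50.3% of 1071 clusters with the 4 libraries alone, where it lies above the next classes at 27.9% and 39.8%. Of the 6004 clusters under 1 CPM, 900 would not pass the filter in the 6 outside libraries and so were tested through their title-heat or control counts. Of these 27.7% were called, and of the other 5104 4.45%. From 1 CPM up, 33 of 11888 clusters in the first class and none (0) in the others were of this kind. Higher calls outnumbered lower ones by 1714 to 1029 at 10 to 100 CPM and by 338 to 168 at 100 to 1000 CPM, and stood at 1002 to 943 at 1 to 10 CPM. With total counts the 10 to 100 CPM class turned to 1366 higher and 1398 lower, and upper-quartile factors gave 1417 and 1434, while the class of 100 to 1000 CPM had 281 and 265 or 283 and 248. The median size of a called change fell with read number, from 2.32 on the log2 scale at 1 to 10 CPM to 1.27 and 1.18 in the next classes. Clusters with few counts pass the test only at larger changes, so part of this order follows from the test. The same limit holds for the share called, which is therefore no measure of how strongly a class responded.

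How many of the most-read clusters of the leaf were called depended on the tool and on the libraries fitted. At 1000 CPM or more, 11 of 82 clusters (13.4%) passed in the edgeR fit to all 10 libraries, 6 higher and 5 lower. DESeq2 called 31.7% of them, 12 higher and 14 lower. With edgeR on the 4 libraries alone the numbers were the same, at 31.7%, 12 higher and 14 lower. Among the 100 most-read clusters, 8 were higher and 7 lower by edgeR and 14 and 19 by DESeq2. No filter on low counts gave 19 and 22, upper-quartile factors gave 7 and 15, total counts 7 and 22, and a fit to the 4 libraries alone 15 and 19. Without control replicate 1 they were 5 and 4, without title-heat replicate 1 4 and 3, and without title-heat replicate 2 5 and 4. Their median log2 change was −0.0335. The control replicates themselves differed more among clusters of at least 1000 CPM, with a median log2 ratio of 0.207 in size between them, than at 100 to 1000 CPM, where it was 0.156. Between the title-heat replicates the corresponding values were 0.103 and 0.12, and between a title-heat and a control library 0.228 to 0.345 and 0.497 to 0.518.

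**Figure D3:**
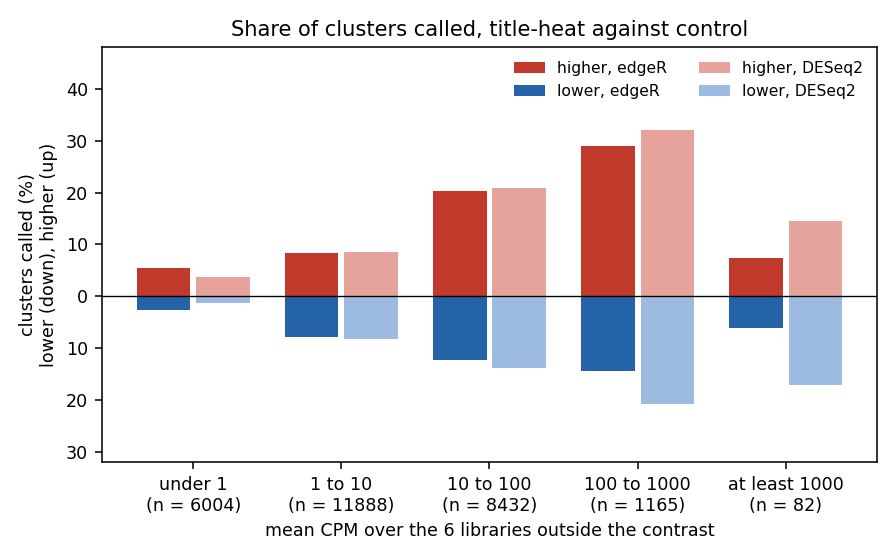
Share of clusters called higher (upward bars, %) and lower (downward bars, %) in title-heat against control, by mean CPM over the 6 libraries outside the comparison, with edgeR (dark) and DESeq2 (pale). The share called grows from 16.4% at 1 to 10 CPM to 43.4% at 100 to 1000 CPM by edgeR, and in the class of at least 1000 CPM edgeR calls 13.4% and DESeq2 31.7%. In that class edgeR on the 4 libraries alone, not drawn, also called 31.7%.

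The list of the most-read clusters changed in part. The 2 control libraries shared 95 of their 100 most-read clusters and the title-heat libraries shared 96, while a control and a title-heat library shared 71 to 73. Title-heat libraries shared 71 to 75 of these with drought libraries, 62 to 65 with title-cold and 48 to 52 with submergence. The difference between groups thus exceeded that between replicates. The 100 most-read clusters held 51.7% and 48.4% of the counts in control and 43.3% and 44.9% in title-heat, and the 10 most-read held 24.0% and 21.0% against 17.2% and 18.5%.

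Ratios from pairs that share no library were alike. For 9679 clusters of at least 10 CPM in the other treatments, the log2 ratio of title-heat replicate 1 over control replicate 1 and that of replicate 2 over replicate 2 correlated across clusters at r = 0.899, and at r = 0.896 with the controls exchanged. Clusters are not independent replicates, and the pairs share assembly and counting, so this is a description. In both pairs 1238 clusters were at least 2-fold higher and 591 at least 2-fold lower. Another 19 were opposite, at least 2-fold higher in 1 pair and at least 2-fold lower in the other. Over all 27571 tested clusters r was 0.771, with 2793 higher, 1948 lower and 164 opposite.

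**Figure D4:**
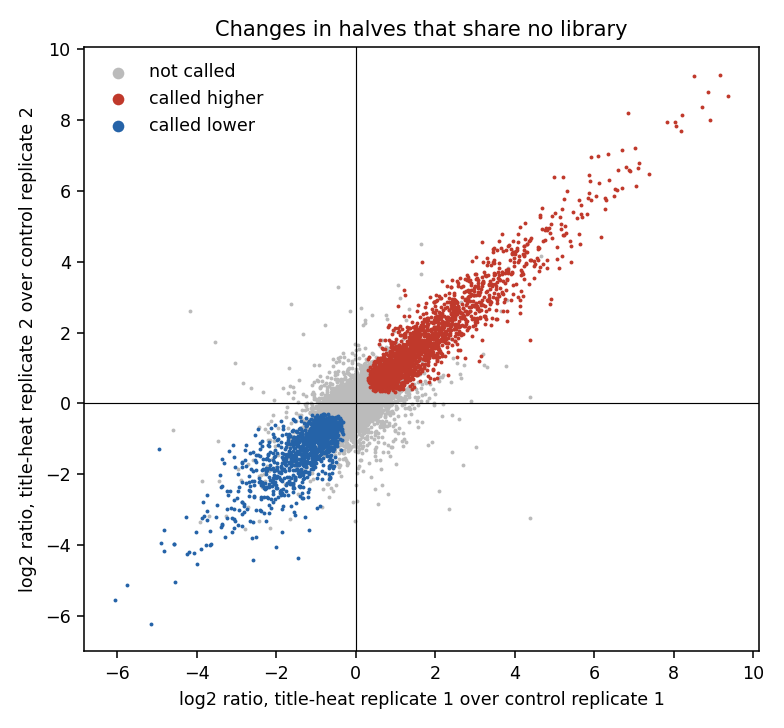
Log2 ratio of title-heat over control for replicate 1 (x axis) and replicate 2 (y axis), from CPM plus 0.5, for the 9679 clusters of at least 10 CPM in the other treatments. Red and blue points are clusters called higher and lower, which lie in the same direction in both ratios because the calls use these libraries. In 19 points 1 ratio is at least 2-fold up and the other at least 2-fold down.

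Clusters that differ among the other treatments were called higher in title-heat more often than the rest, except under 1 CPM. Drought, submergence and title-cold differed from each other in 20268 of the tested clusters (73.5%) by at least 1 of 3 edgeR contrasts, none of which compares a title-heat or control library, and 7303 clusters passed none. The dispersions come from the fit to all 10 libraries, so the split is not fully independent of the comparison. Of the former, 14.8% were higher and 8.83% lower in title-heat than in control, and of the latter 5.34% and 6.97%, beside 12.3% and 8.33% of all. At 10 to 100 CPM these shares were 23.2% and 12.4% of 6928 varying clusters and 7.25% and 11.2% of 1504 others. With the varying clusters taken from a fit to the 6 other libraries alone, chosen after seeing the data, the higher shares were 14.9% of 19358 and 6.1% of 8213, and at 10 to 100 CPM 23.7% of 6625 and 7.8% of 1807. At 1 to 10 CPM the shares from the full fit were 10.8% and 8.25% of 8036 and 3.56% and 7.27% of 3852. At 100 to 1000 CPM they were 29.7% and 14.2% of 1123 and 9.52% and 21.4% of only 42 others. Under 1 CPM the higher share went the other way, at 4.46% of 4100 varying clusters and 7.35% of 1904 others. Some clusters of that class were tested only through title-heat or control counts, and the class is part of the shares over all clusters. From 1 to 100 CPM the lower share thus differed less between the sets than the higher share did, and no test of that difference was made. Over all clusters the median log2 change was 0 in the varying set and −0.218 in the others. Clusters with few counts or a large spread are called less often in either comparison, so part of these differences may follow from the test.

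Identifiers that share the number before the point may be pieces or relatives of one assembled gene, and their reads may have been divided between them. Of the tested clusters, 5432 shared such a number with another, in 3211 pairs. Of these 5432 clusters 1298 were called, beside 5681 of all 27571. Both members were called in 276 pairs, with 178 pairs both higher, 58 both lower and 40 in opposite directions, so that 85.5% went one way. Since 59.5% of all calls were higher, unrelated clusters would also often go one way, and no test against that was made. As such clusters may be pieces of one gene, counts of clusters are not strictly counts of genes.

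The 4 named clusters are the 2 with the largest gain and the 2 with the largest loss in mean CPM among clusters called at a 2-fold difference or more. These choices use the comparison itself, so their values against control are a description of its extremes. The cluster c162777.graph_c0 had 8281 and 6094 counts in control and 51785 and 57060 in title-heat. Its level went from 760 ± 236 CPM to 6280 ± 861 CPM (SD, n = 2), with a log2 change of 3.05 (SE 0.34, adjusted p = 0.000328, edgeR). Title-heat lay highest of all groups, and the level was 1960 ± 25.2 CPM under drought, 299 ± 50.2 CPM in title-cold and 37.7 ± 17.5 CPM under submergence. Title-heat exceeded drought 3.21-fold (adjusted p = 0.00634), title-cold 21-fold (adjusted p = 2.67e-05) and submergence 166-fold (adjusted p = 2.95e-06) by edgeR.

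The cluster c156363.graph_c2 differed from it in that drought lay below control and not above. It had 9032 and 7250 counts in control and 48180 and 57401 in title-heat, or 858 ± 216 CPM and 6100 ± 1170 CPM (SD, n = 2), a log2 change of 2.83 (SE 0.423, adjusted p = 0.00197, edgeR). Levels were 394 ± 115 CPM under drought, 213 ± 6.59 CPM under submergence and 995 ± 597 CPM in title-cold, whose libraries at 573 and 1417 CPM lay on either side of both control libraries. Title-heat was above each of these groups, with the smallest difference, 6.13-fold, from title-cold (adjusted p = 0.00147, edgeR).

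The cluster with the largest loss, c164041.graph_c6, was the most-read one in control replicate 1. It held 5.01% and 3.59% of the counts in control, 1.38% and 1.81% in title-heat, 1.84% and 2.58% under drought, 1.73% and 2.18% under submergence and 8.04% and 9.56% in title-cold. Its level went from 50100 ± 15200 CPM in control to 20600 ± 4780 CPM in title-heat (SD, n = 2), a log2 change of −1.28 (SE 0.284, adjusted p = 0.0122, edgeR). The call was lost without control replicate 1 (−0.933, adjusted p = 0.0909) and without title-heat replicate 1 (−1.06, adjusted p = 0.113, edgeR), and adjusted p over all settings ran from 2.02e-32 to 0.113. The lowest adjusted p came from the fit with no filter, where the log2 change was also −1.28. Against title-cold title-heat was 3.36-fold lower (adjusted p = 0.00144), and its differences from drought (adjusted p = 0.51) and submergence (adjusted p = 0.169) did not pass the edgeR test.

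The cluster c161541.graph_c0 had 16473 and 17151 counts in control and 4014 and 3259 in title-heat. Its level went from 1760 ± 123 CPM to 416 ± 32.6 CPM (SD, n = 2), a log2 change of −2.08 (SE 0.17, adjusted p = 5.19e-05, edgeR). All other treatments also lay below both control libraries, at 646 ± 59.3 CPM under drought, 525 ± 10 CPM in title-cold and 15.9 ± 3.08 CPM under submergence. Title-heat was below drought (1.55-fold, adjusted p = 0.0232) and 26.1-fold above submergence (adjusted p = 7.79e-07), and the difference from title-cold did not pass (log2 change −0.334, SE 0.164, adjusted p = 0.144, edgeR).

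**Figure D5:**
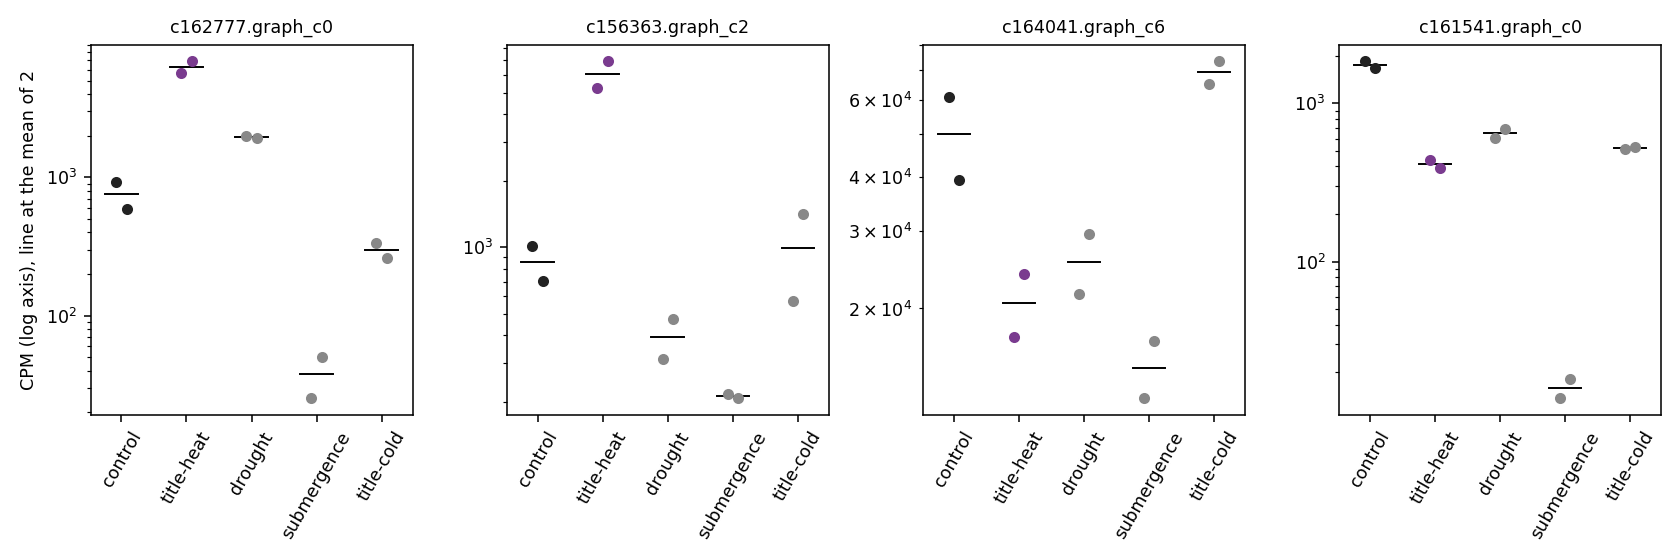
Level in CPM (y axis, log scale, separate for each panel) of the 4 named clusters in every library, with a line at the mean of the 2 libraries of each group. In the first 2 panels title-heat lies above all other groups, and in the last 2 both title-heat libraries lie below both control libraries while submergence lies lower still in CPM. For c164041.graph_c6 the difference between title-heat and submergence did not pass the edgeR test (adjusted p = 0.169). Its shares of counts overlap, at 1.73% and 2.18% under submergence and 1.38% and 1.81% in title-heat.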

How the data were processed

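The authors deposited whole-number read counts for 46394 assembled clusters in 10 libraries, with no normalization. Per the submitters' processing notes the tools were RSEM and DESeq 1.10.1, in roles not stated, while assembly, aligner and strand setting were not given in the sources used here. If the counts came from RSEM they are rounded estimates. The table's name speaks of bermudagrass and cold, as the extraction text does of the former, while the columns match these samples' descriptions; that the counts come from these samples rests on that match alone. Counts were tested in R 4.3.3 with edgeR 4.0.16: filterByExpr (minimum count 10, minimum total 15), which kept 27571 clusters (59.4%) with at least 99.24% of each library's counts, TMM factors, and a robust quasi-likelihood fit over 5 groups of 2 with 5 residual degrees of freedom. The SE is the log2 change over the root of its F value. The common dispersion of 0.0899 corresponds to a coefficient of variation of 30%. Replicates are not said to be separate cultures, so p-values measure the spread between libraries. Alternatives included DESeq2 1.42.0, other scalings and filters, and leaving out libraries. Clusters to name were the 2 largest gains and 2 largest losses in mean CPM among called clusters with groups apart and at least a 2-fold difference. The comparison and sets were chosen with earlier results of these data known.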

Additional observations from a re-analysis of the deposited data

How the results depend on the processing

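The count of clusters called, 5681, ranged from 5036 to 7908 over scaling, filter, tool, fit and block settings. The highest came with no filter, and the next, 6894, with the 4 libraries alone. With no filter the log2 change of c162777.graph_c0 stayed at 3.05, but its adjusted p went from 0.000328 to 6.04e-81 (edgeR). The p-values of that fit are thus not comparable with the others, which limits every count given for it. No cluster called with the settings of the report was called in the opposite direction under any alternative (0 of 13 settings). All these settings reuse the same libraries or a part of them, so this was nearly given in advance. Without any filter the lower calls were 3661 in place of 2298 and those below every other group 826 in place of 498, and total counts gave 829. The share of higher calls, 59.5%, was 58.2% with RLE factors, 49% with upper-quartile factors, 48.3% with total counts, 53.7% with no filter, 57.7% with DESeq2 and 54.5% with the 4 libraries alone. Among the 100 most-read clusters, with 8 higher and 7 lower, the lower ones were 15 under upper-quartile factors and 22 under total counts, and both directions were 19 and 22 with no filter, 14 and 19 with DESeq2 and 15 and 19 with the 4 libraries alone. Clusters that vary among the other treatments were higher in 12.7% of cases under upper-quartile factors and in 12.2% under total counts (14.8% with TMM), the others in 4.52% and 4.27% (5.34%), or 6.1% with varying clusters from a fit to the 6 other libraries alone. The cause of these moves was not tested.

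With 1 library of the comparison left out, where the lone library is assumed to vary like the other groups, calls numbered 3235 to 3594, higher 2189 to 2246, lower 1046 to 1348, and the share of higher calls was 62.1% to 67.7%. Clusters above every other group numbered 505 to 718 and those below 225 to 375, and the 100 most-read had 4 to 7 higher and 3 to 6 lower. These fits have fewer samples. The 100 most-read clusters under settings other than scaling, and the fit without submergence libraries, were added after seeing the data.

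Same-numbered replicates of control and title-heat deviated together at r = 0.0156 over 9679 clusters, and over all pairs of groups r ran from −0.0515 to 0.079. No shared deviation by replicate number was thus seen. Whether same-numbered libraries were grown or handled together cannot be read from these values. With the replicate number as a block the fit called 5036 clusters, 61.2% of them higher. With 2 libraries a group, depth limits statements on clusters near 3 counts, and unnamed clusters limit all statements on function.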
